A study of Mus musculus with 7 samples.

Results

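The creatine kinase family of the mouse, *Ckm*, *Ckmt2*, *Ckb* and *Ckmt1*, was examined for occupancy by the clock factors BMAL1 and REV-ERBα and by RNA polymerase II (RNAP2) in skeletal muscle. Every ChIP-seq peak that overlapped the body of one of these genes, or lay within 20 kb of any of their annotated transcription start sites (TSSs), was taken. This gave 72 of the 527903 peaks, at 4 of 21938 protein-coding genes. The genes were chosen on earlier results of these data, in which the BMAL1 and REV-ERBα peaks of *Ckm* were among the strongest, so the strengths given here for *Ckm* are a description and were not tested.

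Creatine kinases move a phosphate group between ATP and creatine, which lets a cell hold energy as phosphocreatine and return it to ATP where ATP is spent. The muscle enzyme encoded by *Ckm* works beside the myosin and calcium pump ATPases of the fiber, and the sarcomeric mitochondrial enzyme encoded by *Ckmt2* charges creatine where ATP is made. *Ckb* encodes the brain-type cytosolic enzyme and *Ckmt1* the ubiquitous mitochondrial enzyme, both best known outside skeletal muscle. BMAL1 is the activator of the circadian clock and binds E-box sequences, and REV-ERBα is a nuclear receptor that represses transcription in the same clock.

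ChIP-seq sequences the DNA that an antibody recovers with a protein, and peaks are the stretches recovered above input DNA. All animals were wild-type C57BL/6J males, 5 months old, and the tissue was gastrocnemius muscle used whole. BMAL1 and RNAP2 were mapped at zeitgeber time (ZT) 4 and REV-ERBα at ZT 8, with 2 replicates of each, so REV-ERBα differs from the other two in time as well as in factor and the contributions of each cannot be told apart. No list from mice that lack a factor was analysed here. A peak carried by fewer nuclei and a weaker occupancy of each nucleus cannot be told apart in whole muscle.

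The lists differed in length, from 28881 peaks in REV-ERBα replicate 1 to 177669 in BMAL1 replicate 2, and BMAL1 replicate 1 had 34737. The strength of a peak is given as the −log10 p at its summit, its highest point, and merged peaks were called a replicated region when both lists of a factor contributed to them. The reads behind single peaks are unknown, so no counting interval could be given, and strengths were compared within a list. Replicated RNAP2 regions were found within 1 kb of a TSS for 8 of 8 skeletal muscle markers (*Acta1* and *Myh4* among them) and for 0 of 3 heart, 0 of 4 neuronal, 0 of 2 astrocyte, 0 of 2 liver and 0 of 2 leukocyte markers. Of all protein-coding genes, 30.5% had such a region.

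*Ckm* had 29 of the 72 peaks, with replicated regions of BMAL1, REV-ERBα and RNAP2, while *Ckmt2* had 17 peaks, *Ckmt1* 16 and *Ckb* 10. Replicated BMAL1 regions numbered 4 at *Ckm* and 1 at *Ckmt1*, against 8.55% of all genes with at least 1. *Ckm* alone of the 4 genes had a replicated REV-ERBα region, and 5.73% of all genes had one. Replicated RNAP2 regions numbered 1 at *Ckm*, 2 at *Ckmt2* and 1 near *Ckb*, and 47.2% of all genes had one. Shared sites, where 3 or more lists of the clock factors had overlapping peaks, were limited to *Ckm* among these genes. Its site joined peaks of all 4 lists over 14996 bp, and 2.07% of all genes had a shared site. Of the 8 skeletal muscle markers, 7 had a replicated BMAL1 region, 7 one of REV-ERBα and 6 a shared site. Over all 21 markers of the tissues named above the numbers were 9, 9 and 6. The choice of the genes used these same lists, so nothing is read from these counts.

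**Figure D1:**
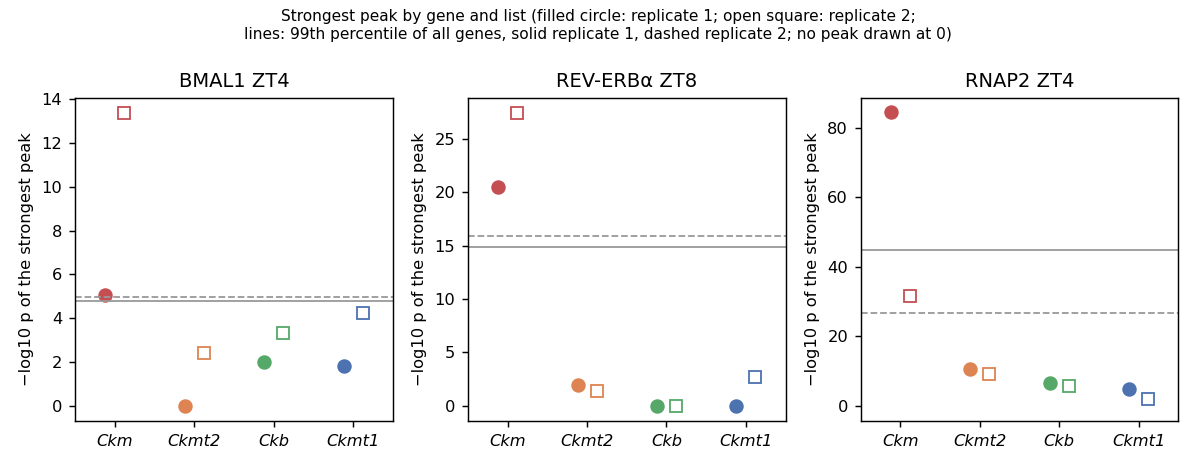
Strongest peak of each creatine kinase gene in each list, as −log10 p on the vertical axis, with 1 panel per factor, replicate 1 as filled circles, replicate 2 as open squares and a gene without a peak drawn at 0. The lines mark the 99th percentile over all protein-coding genes, and *Ckm* lies above it in all 6 lists, closest in BMAL1 replicate 1 (5.07 against 4.80).

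*Ckm* (ENSMUSG00000030399) lies on the plus strand of chromosome 7 and has 3 annotated TSSs, the gene annotation beginning at 19404776. Its longest transcript marked as principal in GENCODE runs from the TSS at 19411025 to 19422841 (mm10), over 11817 bp and 8 exons. Positions below are counted from this TSS. RefSeq starts the gene at 19411094 and ends it at 19421583, so the stretch between there and 19422841 is transcript in one annotation and flank in the other. Upstream of the TSS at 19411025 lies the muscle enhancer long known from reporter studies, which is bound by MEF2 and by E-box factors of the MyoD family. It is printed first because it falls, wholly or in part, inside the RNAP2 and REV-ERBα peaks, followed by the promoter, beside which RNAP2 was strongest, and by the windows of 100 bp to each side of the BMAL1 and REV-ERBα summits discussed here. All are on the plus strand of GRCm38, with the motifs found in capitals. The motifs were the E-box CACGTG of clock factors, the E-boxes of muscle factors, which read CAGCTG or else CACCTG, the nuclear receptor motif AGGTCA with its variant GGGTCA, and the MEF2 consensus, each searched on both strands.
*Ckm* upstream stretch, chr7:19409881-19410046: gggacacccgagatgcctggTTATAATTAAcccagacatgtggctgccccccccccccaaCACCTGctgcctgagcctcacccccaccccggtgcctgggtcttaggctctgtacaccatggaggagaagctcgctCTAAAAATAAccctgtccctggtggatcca
*Ckm* promoter, the 250 bases before the TSS, chr7:19410775-19411024: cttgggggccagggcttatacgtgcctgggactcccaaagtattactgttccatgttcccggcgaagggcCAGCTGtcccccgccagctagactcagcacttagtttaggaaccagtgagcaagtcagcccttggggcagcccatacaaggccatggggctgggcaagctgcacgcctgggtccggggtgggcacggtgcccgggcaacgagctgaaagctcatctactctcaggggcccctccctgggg
*Ckm* intron 1, BMAL1 replicate 2 summit, chr7:19412170-19412370: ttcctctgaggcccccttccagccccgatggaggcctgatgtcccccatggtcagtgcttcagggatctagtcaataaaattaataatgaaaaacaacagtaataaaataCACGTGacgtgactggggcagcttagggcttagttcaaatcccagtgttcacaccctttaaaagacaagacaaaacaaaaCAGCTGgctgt
*Ckm* downstream flank, REV-ERBα replicate 2 summit, chr7:19423331-19423531: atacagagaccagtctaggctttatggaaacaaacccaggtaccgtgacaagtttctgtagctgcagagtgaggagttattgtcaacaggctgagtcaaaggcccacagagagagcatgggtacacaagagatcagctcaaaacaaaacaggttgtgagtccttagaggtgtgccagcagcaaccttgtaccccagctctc
*Ckm* downstream flank, BMAL1 replicate 2 summit, chr7:19424136-19424336: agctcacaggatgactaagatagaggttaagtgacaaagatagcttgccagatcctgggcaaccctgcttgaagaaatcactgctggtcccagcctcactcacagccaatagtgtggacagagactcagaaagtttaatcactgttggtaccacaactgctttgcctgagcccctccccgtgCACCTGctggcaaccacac

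RNAP2 covered nearly all of this *Ckm* transcript, but not the annotated gene start further upstream. Its peaks covered 97.9% of the transcript in replicate 1 and 96.7% in replicate 2, and joined into 1 region of 16611 bp, from −1955 to 14655 bp. This was the second widest of the 10752 replicated RNAP2 regions (rank 2), whose median width was 600 bp. The strongest peak lay at the promoter in both replicates, with summits at 235 bp (−log10 p of 84.5, fold enrichment of 26.3) and 85 bp (31.6 and 11.3), 150 bp apart. These peaks ranked 19 of 87861 and 79 of 168821 in their lists. By the weaker of its replicates the region ranked 76 among all RNAP2 regions, and *Ckm* ranked 133 among the 10363 genes with one.

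A further RNAP2 summit lay past the 3′ end of the gene in both replicates. It was 335 bp past the transcript end in replicate 1 (−log10 p of 31.7) and 1336 bp past it in replicate 2 (14.1), so the replicates placed it 1001 bp apart. Replicate 1 had additional summits in intron 6 (36.9) and in exon 8 (18.4). Both replicates thus had their strongest RNAP2 summit at the start of *Ckm*, and replicate 1 alone had separate summits inside the gene, the one in intron 6 above the one past the end.

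REV-ERBα spread over nearly the same stretch. In replicate 2 a single peak of 14470 bp covered 100% of the transcript, and in replicate 1 a run of 4 peaks covered 87.8%. Together they formed a region of 14996 bp, from −1342 to 13653 bp, which ranked 4 in width among 1263 REV-ERBα regions with a median width of 810 bp. The strongest summits did not lie at the promoter. They were past the 3′ end, at 12928 bp in replicate 1 (−log10 p of 20.5, fold enrichment of 7.37) and at 12406 bp in replicate 2 (27.5 and 8.39), which is 1112 and 590 bp beyond the transcript end. The replicates placed them 522 bp apart, while the median distance between replicate summits was 186 bp over all REV-ERBα regions and 98.5 bp over the 500 whose replicates both reached a −log10 p of 3. By strength the region ranked 68 of 1263. At the promoter, replicate 1 had a separate summit at 928 bp with a −log10 p of 9.0, and the other peaks of this replicate inside the gene were 3.78 in intron 4 and 6.29 in intron 5.

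BMAL1 formed 4 regions along *Ckm* that both replicates shared. The strongest lay past the 3′ end, from 11701 to 13512 bp, where −log10 p reached 5.07 and 13.4 in replicates 1 and 2. Its summits were 676 and 1395 bp beyond the transcript end and 719 bp apart, against a median of 245 bp over all 2742 BMAL1 regions. In replicate 2 this peak ranked 10 of 177669, and its −log10 q was 7.19, while in replicate 1 it ranked 245 of 34737 and its −log10 q was 0.318. The replicates thus agree that BMAL1 was strongest past the end of the gene but differ in its strength and exact place.

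The other BMAL1 regions lay inside the gene and were weaker. A region of 2330 bp from 7062 to 9391 bp, with summits in intron 6 and exon 6, had 4.45 and 4.95 and ranked 42 by strength. A region in intron 1, from 1063 to 2260 bp, had 2.87 and 2.40, with summits 933 bp apart. The last, from 10110 to 10575 bp at the start of exon 8, had 3.0 and 1.87 and ranked 1216. Of all genes, 0.479% had a BMAL1 region whose replicates both reached a −log10 p of 3, and *Ckm* had 2 such regions, those at 7062 bp and past the 3′ end. For REV-ERBα 3.28% of genes had such a region, *Ckm* alone among the 4, and for RNAP2 34.6%, among them *Ckm*, *Ckmt2* and *Ckb*. BMAL1 peaks covered 41.1% of the *Ckm* transcript in replicate 1 and 39.7% in replicate 2.

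**Figure D2:**
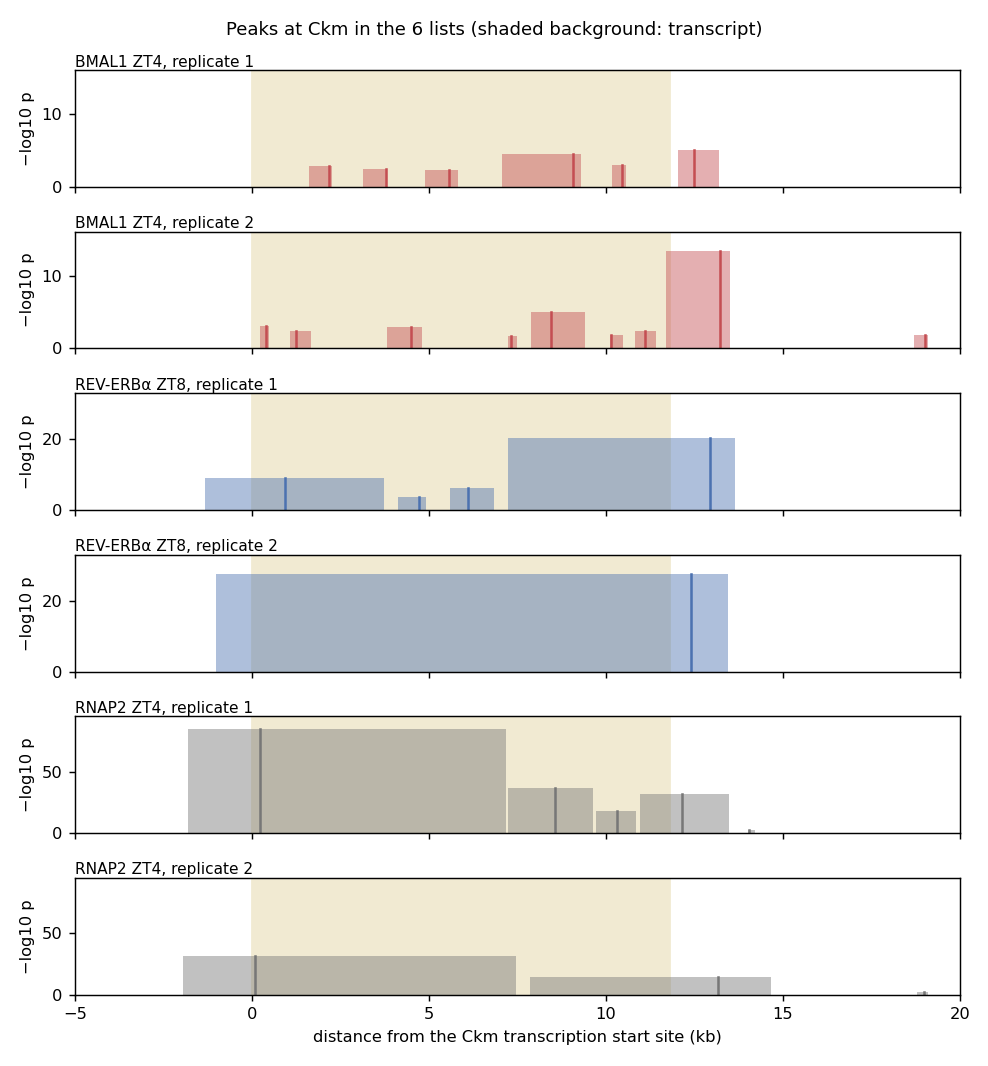
Peaks at *Ckm* in the 6 lists, with the distance from the TSS in kb on the horizontal axis and −log10 p on the vertical axis (its range differs between factors). Each block spans a peak, the line in it marks the summit and the shaded background is the transcript. RNAP2 summits were highest at the start (84.5 and 31.6), and REV-ERBα summits were highest past the end (20.5 and 27.5).

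The BMAL1 and REV-ERBα peaks of *Ckm* lay almost wholly inside its RNAP2 domain. Bases covered by both RNAP2 lists made up 32% of the window of 46288 bp. They held 92.5% and 91.4% of the bases covered by BMAL1 peaks in replicates 1 and 2, and 90.8% and 95.6% of those covered by REV-ERBα peaks. Past the 3′ end, the distance between summits of different factors ranged from 59 to 1060 bp over the 12 pairs of lists. Replicates of one factor lay 719 bp apart for BMAL1, 522 bp for REV-ERBα and 1001 bp for RNAP2. A single position for either clock factor could not be read from these lists. The part that the RNAP2 domain itself has in the BMAL1 and REV-ERBα peaks was not tested.

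Overlap with the clock factors was more frequent among the strongest RNAP2 regions than among all of them. For either factor, most of the 100 strongest still had no overlap. The widths of the regions were not taken into account. Of the 100 strongest RNAP2 regions, which include that of *Ckm*, 11.0% overlapped a replicated BMAL1 region and 35.0% a replicated REV-ERBα region. Over all 10752 RNAP2 regions the shares were 0.986% and 3.97%. Counted by gene, 14.0% of the 100 genes with the strongest RNAP2 had a BMAL1 region and 47.0% a REV-ERBα region in their windows, and *Ckm* was outside these 100.

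The neighbours of *Ckm* showed little. No list had a peak within 1 kb of a TSS of *Klc3*, a kinesin light chain gene upstream, or of *Mark4*, a kinase gene downstream, inside the window. *Ercc2*, a DNA repair helicase gene, had 1 peak there, in REV-ERBα replicate 1 (−log10 p of 2.50). *Mark4* runs toward *Ckm* from the other side and its annotated 3′ end is 1934 bp past that of *Ckm*, so the strongest BMAL1 and REV-ERBα summits lay between the 3′ ends of both genes. An antisense transcript, *A930016O22Rik*, lies over the 3′ part of *Ckm* (19417466 to 19421417, minus strand) and starts 10392 bp from the *Ckm* TSS. The BMAL1 region at exon 8 spans this start, with 1 summit of replicate 1 and 2 of replicate 2 within 1 kb of it. ChIP peaks carry no strand, so the transcripts cannot be told apart there. This transcript was named after its position had been seen.

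The sequences printed above show what these peaks contain. The upstream stretch holds matches to the MEF2 consensus at −1193 and −1077 bp and the E-box CACCTG at −1153 bp, counted from the RefSeq start. All of these matches were inside RNAP2 peaks of both replicates and inside the REV-ERBα peak of replicate 1, and the match at −1077 bp was also inside that of replicate 2. None was inside a BMAL1 peak, and no summit of any list lay nearer than 1093 bp to a MEF2 match. The printed stretch was cut around its MEF2 matches, so their presence in it is not a result, and no share for stretches of this kind was computed. The RefSeq promoter of *Ckm*, of 300 bases, held no MEF2 match. Among all 32851 RefSeq promoters of that length, 3.19% held one.

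The canonical clock E-box CACGTG occurred 13 times in the *Ckm* window, 4 of them inside the transcript, and the 9 outside it lay in no peak of any list. The one in intron 1, at 1255 bp, lay 10 bp from the summit of a BMAL1 peak of replicate 2 with a −log10 p of 2.40, and is the CACGTG in capitals in the intron 1 sequence. It was not inside a BMAL1 peak of replicate 1. Another, at 9190 bp, was inside peaks of all 6 lists, with the BMAL1 summits of replicates 1 and 2 at −119 and −749 bp from it. The remaining matches in the transcript, at 6017 and 9926 bp, were inside REV-ERBα and RNAP2 peaks of both replicates and in no BMAL1 peak. None lay within 100 bp of the BMAL1 or REV-ERBα summits past the 3′ end, which were the strongest. In those windows the search found CACCTG at 82 bp from the BMAL1 summit of replicate 2, CAGCTG and AGGTCA around the REV-ERBα summit of replicate 1, and no match around the BMAL1 summit of replicate 1 or the REV-ERBα summit of replicate 2.

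An exact match to this E-box was found near few summits of the replicated BMAL1 regions. Most of these regions were weak, and 85 of them reached a −log10 p of 3 in both replicates. The paper's motif search by enrichment put E-boxes among the highest-ranked motifs of both clock factors. That measure is unlike the shares given here. Of the 2742 replicated BMAL1 regions, 2.55% had CACGTG within 100 bp of the summit of the stronger replicate, 10.2% had CACCTG and 7.08% CAGCTG. The clock E-box CACGTG was found at 3.40% of the 1263 REV-ERBα regions and at 4.70% of RNAP2 regions. AGGTCA was found at 13.1% of REV-ERBα, 10.7% of BMAL1 and 9.58% of RNAP2 regions, and GGGTCA at 8.63%, 7.26% and 8.97%. The window around the REV-ERBα summit of replicate 1 past *Ckm* consists wholly of annotated repeat sequence, that of replicate 2 had 17.4%, and the median over REV-ERBα regions was 10.9%.

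*Ckmt2* (ENSMUSG00000021622), on the minus strand of chromosome 13 with its TSS at 91876885, had RNAP2 at its promoter and little of the clock factors. Its promoter is printed because both RNAP2 summits fell in it, from RefSeq on GRCm38, minus strand, with CACCTG and CAGCTG in capitals.
*Ckmt2* promoter, chr13:91876886-91877135: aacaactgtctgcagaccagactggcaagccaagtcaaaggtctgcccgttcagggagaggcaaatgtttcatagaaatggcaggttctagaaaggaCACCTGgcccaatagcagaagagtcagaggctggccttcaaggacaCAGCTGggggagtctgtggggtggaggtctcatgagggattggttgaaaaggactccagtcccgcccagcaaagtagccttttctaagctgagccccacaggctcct

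The RNAP2 region at the *Ckmt2* promoter was 1438 bp wide. Its −log10 p reached 10.5 and 9.02 in replicates 1 and 2, with fold enrichments of 6.25 and 5.36. The summits, at −67 and −19 bp, were 48 bp apart, closer than the median of 98.0 bp over all RNAP2 regions. The region ranked 1194 of 10752. A second, weak RNAP2 region in intron 1 had 2.34 and 1.99. RNAP2 peaks covered 2.77% and 3.24% of the 23499 bp transcript, so RNAP2 at *Ckmt2* was a promoter peak and not a domain over the gene as at *Ckm*. The E-boxes CACCTG at −153 bp and CAGCTG at −107 bp lay inside both RNAP2 peaks, and 20.2% and 16.3% of all promoters held these motifs.

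No replicated BMAL1 or REV-ERBα region was found at *Ckmt2*. REV-ERBα replicate 1 had 1 peak at the promoter (−log10 p of 1.95, summit at 110 bp) and replicate 2 had 1 in intron 1 (1.4, summit at 2000 bp), which did not overlap. BMAL1 replicate 1 had 0 peaks in the window of 43499 bp. Replicate 2 had 9, the strongest at 2.40, and its list is the longer one, with a median of 4.00 peaks per gene window against 0 in replicate 1. These weak peaks were scattered over the gene, from −7363 to 21928 bp.

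*Ckb* (ENSMUSG00000001270), on the minus strand of chromosome 12 with its TSS at 111672338, spans 2978 bp. Its promoter is printed from RefSeq, minus strand, because a single RNAP2 replicate had a peak there, with the match to the MEF2 consensus in capitals, whose letters include TATAAA.
*Ckb* promoter, chr12:111672339-111672588: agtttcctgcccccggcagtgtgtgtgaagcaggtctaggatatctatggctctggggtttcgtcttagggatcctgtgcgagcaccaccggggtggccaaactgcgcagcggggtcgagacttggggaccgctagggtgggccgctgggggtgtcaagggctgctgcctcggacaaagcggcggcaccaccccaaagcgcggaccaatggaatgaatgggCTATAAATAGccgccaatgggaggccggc

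At the *Ckb* promoter RNAP2 replicate 1 had a peak with a −log10 p of 5.65 and its summit at 85 bp, and replicate 2 had none. The replicated RNAP2 region in this window, with 6.55 and 5.52, had its summits at −5840 and −5577 bp, within 1 kb of a TSS of *Trmt61a*, which encodes a tRNA methyltransferase. It is counted for *Ckb* by distance only. Occupancy of *Ckb* itself was therefore seen in 1 of 2 RNAP2 replicates.

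REV-ERBα had 0 peaks near *Ckb* in either replicate. BMAL1 replicate 1 had 1 peak, within 1 kb of a TSS of the kinase gene *Mark3* (2.00), and replicate 2 had 3, the strongest 3.30 at −14342 bp, and none of these overlapped the gene.

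*Ckmt1* (ENSMUSG00000000308) lies on the plus strand of chromosome 2, with its TSS at 121357776 and a transcript of 5962 bp. Its window held no replicated RNAP2 region. RNAP2 replicate 1 had a peak of 3.15 near the 3′ end of the gene, at 5688 bp, and its strongest peak, 4.88, lay within 1 kb of a TSS of *Ppip5k1*, an inositol phosphate kinase gene. Replicate 2 had no peak over 1.99.

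The 1 BMAL1 region that both replicates shared near *Ckmt1* lay 13873 to 14482 bp from the TSS, inside *Strc*, a gene of the inner ear. Its −log10 p was 1.81 and 1.38, and it ranked 2677 of 2742. The strongest BMAL1 peak of replicate 2, 4.25 at 15345 bp, had no counterpart in replicate 1. REV-ERBα had 0 peaks in replicate 1 and 1 in replicate 2, 2.64 at −14855 bp.

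**Figure D3:**
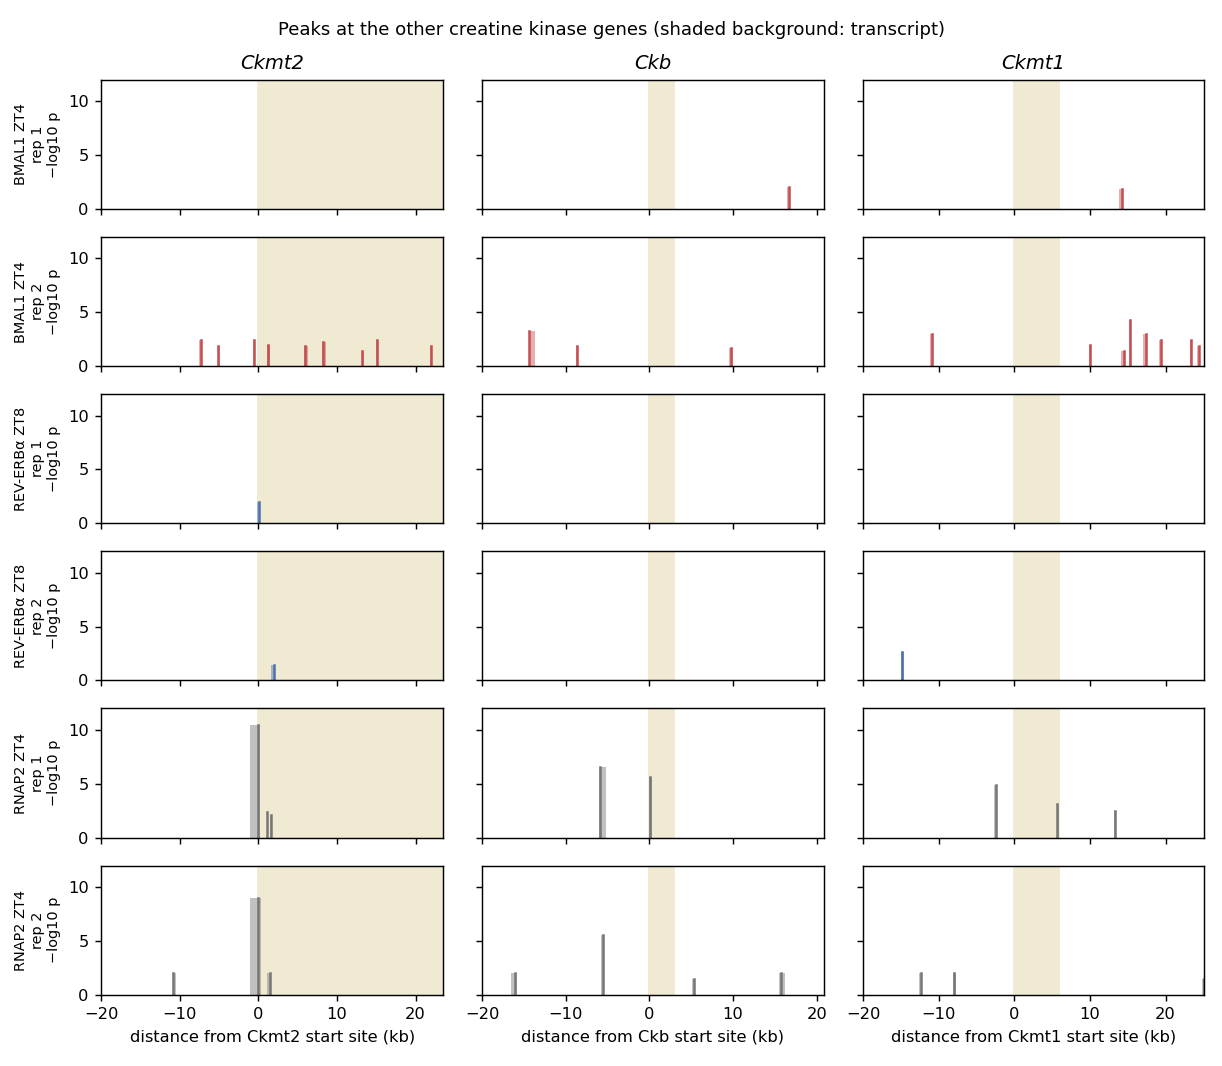
Peaks at *Ckmt2*, *Ckb* and *Ckmt1* in the 6 lists, with the distance from each TSS in kb on the horizontal axes and −log10 p on the vertical axes. Lines mark summits, pale blocks the peaks and the shaded background the transcript. At the promoters of these genes themselves, the one peak that both replicates shared was that of RNAP2 at *Ckmt2* (10.5 and 9.02).

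Ordered by the strongest RNAP2 peak, the family ran *Ckm*, *Ckmt2*, *Ckb* and *Ckmt1* in both replicates, with 84.5, 10.5, 6.55 and 4.88 in replicate 1 and 31.6, 9.02, 5.52 and 1.99 in replicate 2. The values of *Ckb* here are those of the *Trmt61a* promoter, and without that region *Ckb* had 5.65 and 1.99, which leaves it level with *Ckmt1* in replicate 2. That 1.99 lay at −16020 bp, nearest a TSS of *Trmt61a*. The values of *Ckmt1*, 4.88 and 1.99, likewise came from peaks nearest a TSS of *Ppip5k1*. Over the transcripts themselves, *Ckb* had 5.65 and *Ckmt1* 3.15 in replicate 1, and neither had a peak in replicate 2. For REV-ERBα, *Ckm* was first in both replicates (20.5 and 27.5), and the others had at most 2.64. For BMAL1 replicate 1 the order after *Ckm* (5.07) was *Ckb* (2.00), *Ckmt1* (1.81) and *Ckmt2* (no peak). In replicate 2 it was *Ckm* (13.4), *Ckmt1* (4.25), *Ckb* (3.30) and *Ckmt2* (2.40), so *Ckb* and *Ckmt1* changed places and *Ckmt2* was last in both.

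Other genes that make, carry or spend high-energy phosphate were taken as a list of 21. Of these, 16 had a replicated RNAP2 region, 14 of them within 1 kb of a TSS, 5 had a replicated BMAL1 region, 6 one of REV-ERBα and 4 a shared site. The shares of all genes given above for these are 47.2%, 30.5%, 8.55%, 5.73% and 2.07%. The median of the lower RNAP2 −log10 p was 5.92 over the list and 0 over all genes. None of this was tested.

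Creatine supply and the shuttle partners of mitochondrial creatine kinase carried weak clock factor signal. *Gatm*, the first enzyme of creatine synthesis, had a BMAL1 region (lower −log10 p of the replicates 1.77), and no REV-ERBα region was found among the 3 genes of creatine synthesis and transport. *Slc25a4*, the ADP/ATP carrier of muscle mitochondria, had strong RNAP2 (47.6) beside REV-ERBα of 2.47. *Vdac1*, the outer membrane pore, had RNAP2 of 26.8 and REV-ERBα of 1.84. *Slc25a4* also had a REV-ERBα peak of 5.37 in replicate 2 and a shared site. The REV-ERBα values are the strongest in the window of each gene, not those at the promoter. Other genes with strong RNAP2, such as *Ckm*, *Atp2a1* and *Myh4*, had strong REV-ERBα as well, so no relation is read from these genes.

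Among the enzymes of adenine nucleotides, *Ak1*, the adenylate kinase of muscle cytosol, had a REV-ERBα region of 3.29 and RNAP2 of 15.8. *Ampd1*, the muscle AMP deaminase, had BMAL1 of 1.87, REV-ERBα of 1.59 and RNAP2 of 9.02. The 2 nucleoside diphosphate kinase genes listed had no replicated region of any factor.

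The ATPase genes beside which the muscle creatine kinase works were unequal among themselves. *Atp2a1*, the calcium pump of fast fibers, had BMAL1 of 3.6, REV-ERBα of 14.6 and RNAP2 of 25.7. *Myh4*, the myosin heavy chain of the fastest fibers, had 7.22, 13.7 and 31.9. *Myh1*, another fast myosin gene, had BMAL1 of 1.87, RNAP2 of 2.26 and no replicated REV-ERBα region, and the remaining one of the 4 listed had a replicated RNAP2 region alone (3.05). By the same measure *Ckm* had 5.07, 20.5 and 31.6.

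**Figure D4:**
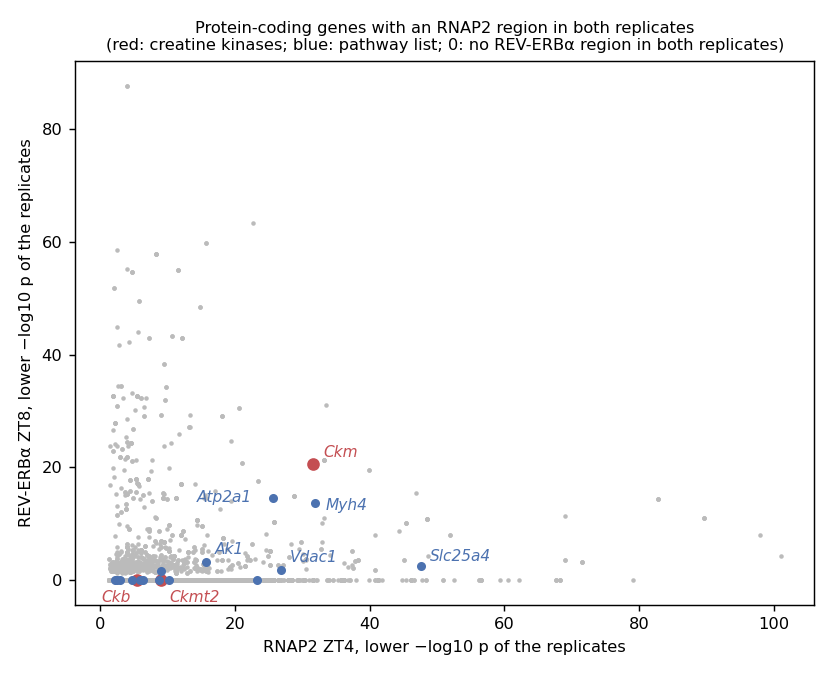
Lower −log10 p of the replicates for RNAP2 at ZT 4 (horizontal) and REV-ERBα at ZT 8 (vertical), for each of the 10363 protein-coding genes with a replicated RNAP2 region, with creatine kinase genes in red, the list of related genes in blue and a gene without a REV-ERBα region at 0. *Ckm* (31.6 and 20.5) lies near *Atp2a1* and *Myh4*, *Ckmt2* and *Ckb* lie at 0 for REV-ERBα, and *Ckmt1* has no RNAP2 region and is not drawn.

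Coverage of a whole gene by RNAP2 and REV-ERBα together was rare. Of all protein-coding genes, 0.0547% (12 genes) had at least 50% of the transcript covered in both RNAP2 and both REV-ERBα lists. Besides *Ckm* these were *Acta1*, *Atp2a1*, *Clec2d*, *Gm37419*, *Myh4*, *Nmrk2*, *Tcap*, *Tnni2*, *Tnnt3*, *Txnip* and *2310039H08Rik*, named after their values had been seen. Several encode contractile proteins of skeletal muscle (*Acta1*, *Myh4*, *Tnni2*, *Tnnt3*). The strongest RNAP2 summit lay in the first 20% of the transcript or upstream in 11 of the 12 genes in each replicate. The strongest REV-ERBα summit lay past the transcript end in 6 in replicate 1 and 7 in replicate 2, *Ckm* among them both times, and in the first 20% or upstream in 3. Both counts past the end include *Gm37419*, of 114 bp, with summits at 293.9% and 239.5% of its length. For BMAL1 a summit past the end was found in 1 of 10 genes with a peak in replicate 1 and 3 of 10 in replicate 2. Only peaks that overlap the transcript were counted here, which leaves out the BMAL1 replicate 1 peak past *Ckm*. The share of such positions over all genes was not computed, and the 12 genes were chosen on these lists, so nothing is read from the counts.

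At some of these genes the strongest REV-ERBα summit lay past the 3′ end in both replicates. At *Acta1*, skeletal muscle actin, the REV-ERBα summits lay at 115.6% and 120.2% of the transcript length, where 100% is the end. At *Tnnt3*, fast troponin T, they lay at 105.8% and 104.4%, and at *Ckm* at 109.4% and 105.0%. *Nmrk2*, a kinase of NAD synthesis, was different, with REV-ERBα summits at −11.9% and −7.1%. The replicates differed widely at *Atp2a1* (23.4% and 96.7%), *Clec2d* (4.3% and 70.9%) and *Tnni2* (63.4% and 12.5%).

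**Figure D5:**
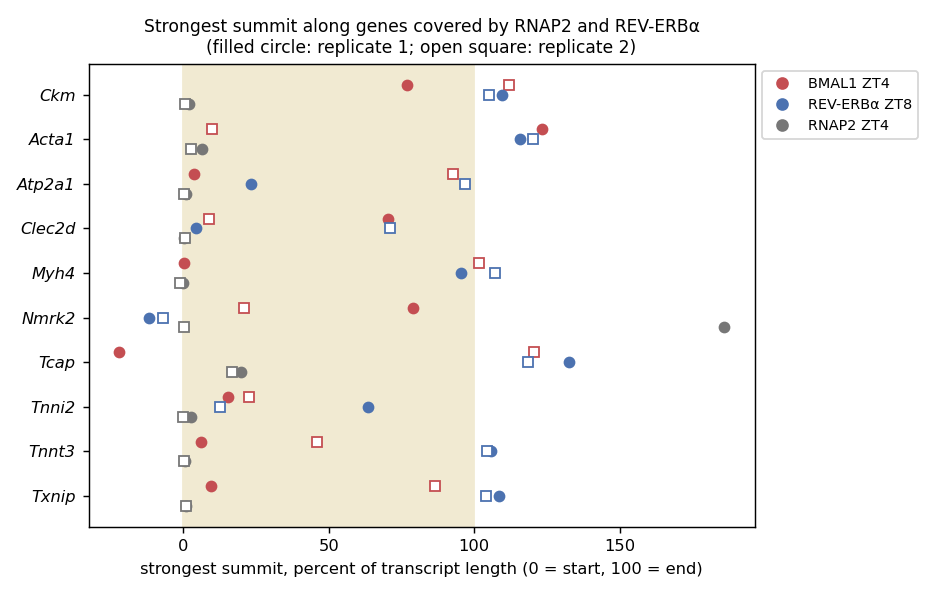
Position of the strongest summit of each list along 10 of the 12 broadly covered genes (2 under 1 kb are not drawn), as percent of transcript length, with replicate 1 as filled circles and replicate 2 as open squares. RNAP2 summits (grey) gather at the start, and REV-ERBα summits (blue) of *Ckm*, *Acta1*, *Tcap*, *Tnnt3* and *Txnip* lie past 100% in both replicates.

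The genes whose pattern over the 6 lists was most like that of *Ckm* were found by the distance between percentile ranks of the strongest −log10 p, over 6 lists and leaving out genes within 50 kb. The nearest were *Tcap* and its neighbours *Pgap3*, *Pnmt* and *Stard3*, which share the same peaks and stood at an equal distance of 0.793 percentile points, followed by *Pvalb*, the calcium buffer of fast fibers, at 0.997. *Tcap*, a protein of the sarcomere Z-disc, had BMAL1 peaks of 11.0 and 10.6, REV-ERBα peaks of 21.2 and 22.7, and RNAP2 peaks of 141 and 33.2. *Pvalb* had 8.19 and 7.22, 21.5 and 15.4, and 74.8 and 46.8. For *Ckmt2* the nearest were *Acy3* (7.2), *Tep1* (8.28), *Msmp* (10.5), *Tmem123* (13) and *Ggct* (14.2 percentile points), with no BMAL1 peak in replicate 1 in any of them. *Ckm* stood at percentiles from 99 to 99.9 in the 6 lists, where genes of unlike −log10 p lie close together by this measure, so its distances and those of *Ckmt2* cannot be compared.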

How the data were processed

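ChIP-seq peaks of BMAL1 and RNAP2 (ZT 4) and REV-ERBα (ZT 8), 2 replicates each, were used as deposited, 1 list per sample. The authors aligned reads to mm10 with BWA 7.12, removed duplicate and multi-mapping reads, reduced replicates to about the read number of the smaller one and called peaks on each replicate against input DNA with MACS2 2.1.1 at a p-value cutoff of 0.05, per the study's methods and the submitters' processing notes. For each peak the authors deposited a fold enrichment over input (a ratio), the −log10 p and −log10 q at the summit, a score and the summit offset, and the deposited score was not used. At so permissive a cutoff weak peaks are many, and a wide peak has a single summit. The number of columns of per-sample values without a sample was 0. The lists hold no library depth and no reads per peak, so depth was not used here, and the input reads were not analysed here.

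Peaks on the main chromosomes were kept, and regions were formed from peaks that share 1 bp or more. Genes, TSSs and the longest transcript marked as principal (the whole gene where none was marked) came from GENCODE M21. Promoters came from RefSeq (GRCm38), which held all 4 genes. The printed *Ckm* promoter is instead the 250 bases before the GENCODE start, so it ends upstream of the RefSeq start at 19411094. Motifs were searched on both strands. Named genes were the 4 members, protein-coding neighbours in their windows, related genes with a BMAL1 or REV-ERBα region in both replicates, and the 5 genes most like *Ckm* and *Ckmt2*. *A930016O22Rik* and the genes broadly covered by RNAP2 and REV-ERBα were named outside this rule, after their values were seen, and *Acta1* as a muscle marker. The members and lists were chosen with earlier results of these data known. No test was run, since the lists hold no read counts over a common set of regions and the members were chosen on these lists. Whether replicates are separate animals is not given in the labels. Python 3.11.15, numpy 2.4.6 and matplotlib 3.10.9 were used, and merging was checked on simulated lists, where 200 of 200 planted shared regions were recovered.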

Additional observations from a re-analysis of the deposited data

How the results depend on the processing

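Under stricter or other settings the REV-ERBα region of *Ckm* and the site shared by BMAL1 and REV-ERBα were each found once, as in the report, for a −log10 p of at least 3, a −log10 q of at least 1.3, a distance of 10 kb, the gene body only, an overlap of 50% of the shorter peak, and equal list sizes (the strongest 28881 peaks of each list). At the q threshold the shared site rested on 3 lists, since the peak of BMAL1 replicate 1 fell below it. The REV-ERBα replicate 2 peak of 14470 bp covers the whole transcript, so any BMAL1 peak inside the transcript overlaps it. That the shared site stayed at 1 therefore says little about a common binding position. RNAP2 regions numbered 3 to 5 under these settings, against 4. BMAL1 regions depended on the threshold. There were 5 with all peaks, 2 at a −log10 p of at least 3, 0 at a −log10 q of at least 1.3, 3 with an overlap of 50% of the shorter peak and 2 with equal list sizes. The q threshold left 36 peaks in the whole list of BMAL1 replicate 2 and 92 in that of replicate 1. With one replicate left out, so that the other list alone stood for the factor, BMAL1 regions ranged from 8 to 29, REV-ERBα regions from 3 to 6 and RNAP2 regions were 13 either way, since the agreement of replicates was then not required. The shared site then numbered 1 to 3, with 3 only without REV-ERBα replicate 2. No paired analysis was possible because no result comes from a test. Precision is limited by 2 replicates, unknown read counts per peak and BMAL1 lists of unequal length.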
